A study of Mus musculus with 40 samples.

Results

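The muscle acetylcholine receptor (AChR) subunit mRNAs were followed in the EDL (extensor digitorum longus) of mice, a muscle of the lower leg made mostly of fast fibers. The members were the 5 genes Chrna1, Chrnb1, Chrnd, Chrne and Chrng, chosen by name from the 22844 genes of the deposited tables. The mRNA libraries came from 8 groups of 5, 40 in all, with ages of 3 or 9 months. Control mice (CON) were floxed for Tsc1 (genotype Tsc1fl/fl, strain Tsc1tm1Djk/J) and carried no Cre recombinase. TSCmKO mice, the littermates with the same floxed alleles, lacked Tsc1 in skeletal muscle fibers, and the promoter that drives Cre was not given in the sources used here. Tsc1 restrains the growth kinase complex mTORC1. Each genotype received vehicle or the mTORC1 inhibitor rapamycin (RM) by intraperitoneal injection for 3 days before dissection. The labels give 4 mg per kg, and another part of the study's text states a different one, so that the dose is uncertain. Groups are written as 3mCON, 3mCON+RM, 3mTSCmKO, 3mTSCmKO+RM, 9mCON, 9mCON+RM, 9mTSCmKO and 9mTSCmKO+RM.

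The muscle AChR is the ion channel through which a motor neuron excites a muscle fiber. It is a ring of subunits that holds alpha (Chrna1), beta (Chrnb1) and delta (Chrnd) together with either gamma (Chrng) in the fetal form or epsilon (Chrne) in the adult form. Gamma is replaced by epsilon around birth, and epsilon is made by the nuclei under the nerve terminal. After denervation, nuclei along the whole fiber express the alpha, beta, delta and gamma genes again, a response in which the E-box-binding factor myogenin (Myog) takes part.

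The promoters of the members are shown because the adult and the fetal gene moved in opposite directions at 9 months. RefSeq promoters (GRCm38.p6) were matched by symbol for 4 of the 5 members, Chrng, Chrna1, Chrnb1 and Chrne, and the entry of Chrnd was missing. Each line holds the 250 bases before the transcription start, written 5′ to 3′ on the strand of the gene. These lie at chr1:87205561-87205810 on the plus strand for Chrng, and on the minus strand at chr2:73580339-73580588 for Chrna1, chr11:69795938-69796187 for Chrnb1 and chr11:70619195-70619444 for Chrne. Capitals mark the E-box, CANNTG, which reads the same on both strands, and the N-box, CCGGAA, searched on both strands. The N-box is known as an element of synaptic genes that Ets factors bind.
Chrng: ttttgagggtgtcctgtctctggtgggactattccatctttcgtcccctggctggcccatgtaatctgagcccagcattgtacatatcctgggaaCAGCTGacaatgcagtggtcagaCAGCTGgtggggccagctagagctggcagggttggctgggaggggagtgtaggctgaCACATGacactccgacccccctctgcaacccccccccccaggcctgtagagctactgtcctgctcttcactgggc
Chrna1: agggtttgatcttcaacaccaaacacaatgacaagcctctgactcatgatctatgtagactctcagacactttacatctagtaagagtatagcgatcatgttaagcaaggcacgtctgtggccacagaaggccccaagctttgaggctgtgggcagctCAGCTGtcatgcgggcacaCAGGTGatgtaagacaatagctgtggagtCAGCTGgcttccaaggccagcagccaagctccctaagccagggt
Chrnb1: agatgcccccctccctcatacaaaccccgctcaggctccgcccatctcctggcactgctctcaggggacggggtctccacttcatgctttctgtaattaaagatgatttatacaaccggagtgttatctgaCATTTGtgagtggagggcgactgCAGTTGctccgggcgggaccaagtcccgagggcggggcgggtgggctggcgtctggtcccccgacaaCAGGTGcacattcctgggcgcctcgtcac
Chrne: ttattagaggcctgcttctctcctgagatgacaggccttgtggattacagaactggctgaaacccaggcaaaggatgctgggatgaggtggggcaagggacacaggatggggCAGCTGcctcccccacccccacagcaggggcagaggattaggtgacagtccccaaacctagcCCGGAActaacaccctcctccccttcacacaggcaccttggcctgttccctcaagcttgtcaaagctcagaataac

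The E-box of the form CAGCTG, a subset of CANNTG, stood 155 and 132 bases before the RefSeq start of Chrng and 92 and 44 bases before the start of Chrna1. Chrne held 1, at 138 bases, and an N-box at 76 bases. Chrnb1 held 3 other E-boxes and no CAGCTG. Of 32851 RefSeq promoter windows of the same length, 13% held CAGCTG, 1.26% held at least 2 of them, 66.2% held CANNTG and 12% held the N-box. The RefSeq start of Chrng lies inside the Ensembl gene span given next, so that its window is upstream of the RefSeq start but downstream of the Ensembl one. The starts coincide for Chrna1, and for Chrnb1 and Chrne the RefSeq start lies slightly inside the Ensembl span. These matches describe letters and do not show binding.

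The members lie on 3 chromosomes of GRCm38. Chrnd (ENSMUSG00000026251, chr1:87190607-87200070) and Chrng (ENSMUSG00000026253, chr1:87204657-87212694) are neighbours on the plus strand. Chrnb1 (ENSMUSG00000041189, chr11:69784036-69795943) and Chrne (ENSMUSG00000014609, chr11:70614883-70619216) are on the minus strand of the same chromosome. Chrna1 (ENSMUSG00000027107, chr2:73563215-73580338) is also on the minus strand. Chrne overlaps 4930544D05Rik on the other strand, and the counting used strand. Of the 31-base stretches of the coding transcripts, 3.98% in Chrna1 and 0.332% in Chrnd also occurred in other genes of the table, and 0% did in Chrnb1, Chrne and Chrng.

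Tsc1 ran from 51.3 to 134 CPM (a count scaled to the library total, with TMM factors) in the 20 CON libraries and from 17.8 to 35.8 CPM in the 20 TSCmKO libraries, with no overlap. Total counts were 8883870 to 35224669 per library. Replicates of a group correlated across genes on the log scale with r = 0.926 to 0.991, and no 2 replicates of a group agreed within counting error. By the labels, inserts of the 3-month libraries measured 175 to 239 nt and those of the 9-month libraries 223 to 308 nt, so that insert size moved with age. Fits with insert size as a term are given after the results. Fast-fiber markers (6 of 6 in the table, none at 0) summed to 105800 to 120300 TPM (a unit that also divides by transcript length) in 9mTSCmKO and to 140100 to 153600 TPM in 9mCON. The labelled fast muscle was therefore seen in its defining markers.

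Chrng, the fetal subunit, was nearly absent from every group but 9mTSCmKO. The 9mCON libraries held 3, 0, 2, 1 and 4 Chrng counts, and the 9mTSCmKO libraries held 91, 26, 125, 28 and 40. After rapamycin the 9-month knockout libraries (9mTSCmKO+RM) held 3, 5, 4, 7 and 8 counts. The 9mTSCmKO values lay above all others with no overlap, and within them replicates 1 and 3 stood above replicates 2, 4 and 5. At 3 months the counts were 2, 2, 7, 3 and 2 in 3mCON, and 2, 1, 0, 2 and 4 in 3mTSCmKO. With rapamycin there were 0, 1, 0, 7 and 3 counts in 3mCON+RM, 1, 7, 4, 5 and 2 in 3mTSCmKO+RM, and 0, 0, 0, 2 and 3 in 9mCON+RM. Chrng thus lay near the limit of detection in 7 of the 8 groups. On the CPM scale 9mTSCmKO reached 3.32 ± 2.45 (SD, n = 5), 9mTSCmKO+RM 0.342 ± 0.133 and 9mCON 0.120 ± 0.0884. Chrng passed the filter of 1 CPM in 5 libraries only through 9mTSCmKO, where 5 of 5 libraries reached it against 0 elsewhere, so that a difference there was built into its passing.

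Between 9mTSCmKO and 9mCON the log2 fold change of Chrng was 4.67 (SE 0.56, 95% interval 3.55 to 5.79), a description because of that filter. In 9mTSCmKO+RM against 9mTSCmKO it was -3.26 (SE 0.48, 95% interval -4.22 to -2.29). The test was therefore taken from the fit without a filter, which admits Chrng whatever its level in any group. There the values were 4.645 (adjusted p = 8e-09, edgeR's quasi-likelihood test with Benjamini-Hochberg adjustment) and -3.228 (adjusted p = 2.27e-06). Between the RM groups the log2 difference was 2.22 (SE 0.79, adjusted p = 0.0406 by edgeR), a call that the fit without a filter did not give (2.187, adjusted p = 0.0517), and against 9mCON the value was 1.41 (SE 0.69, adjusted p = 0.118). The call between the RM groups was also lost in 6 of 10 fits that left out 1 library (adjusted p up to 0.116), those without replicate 1, 2 or 3 of 9mCON+RM or replicate 2, 4 or 5 of 9mTSCmKO+RM.

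**Figure D1:**
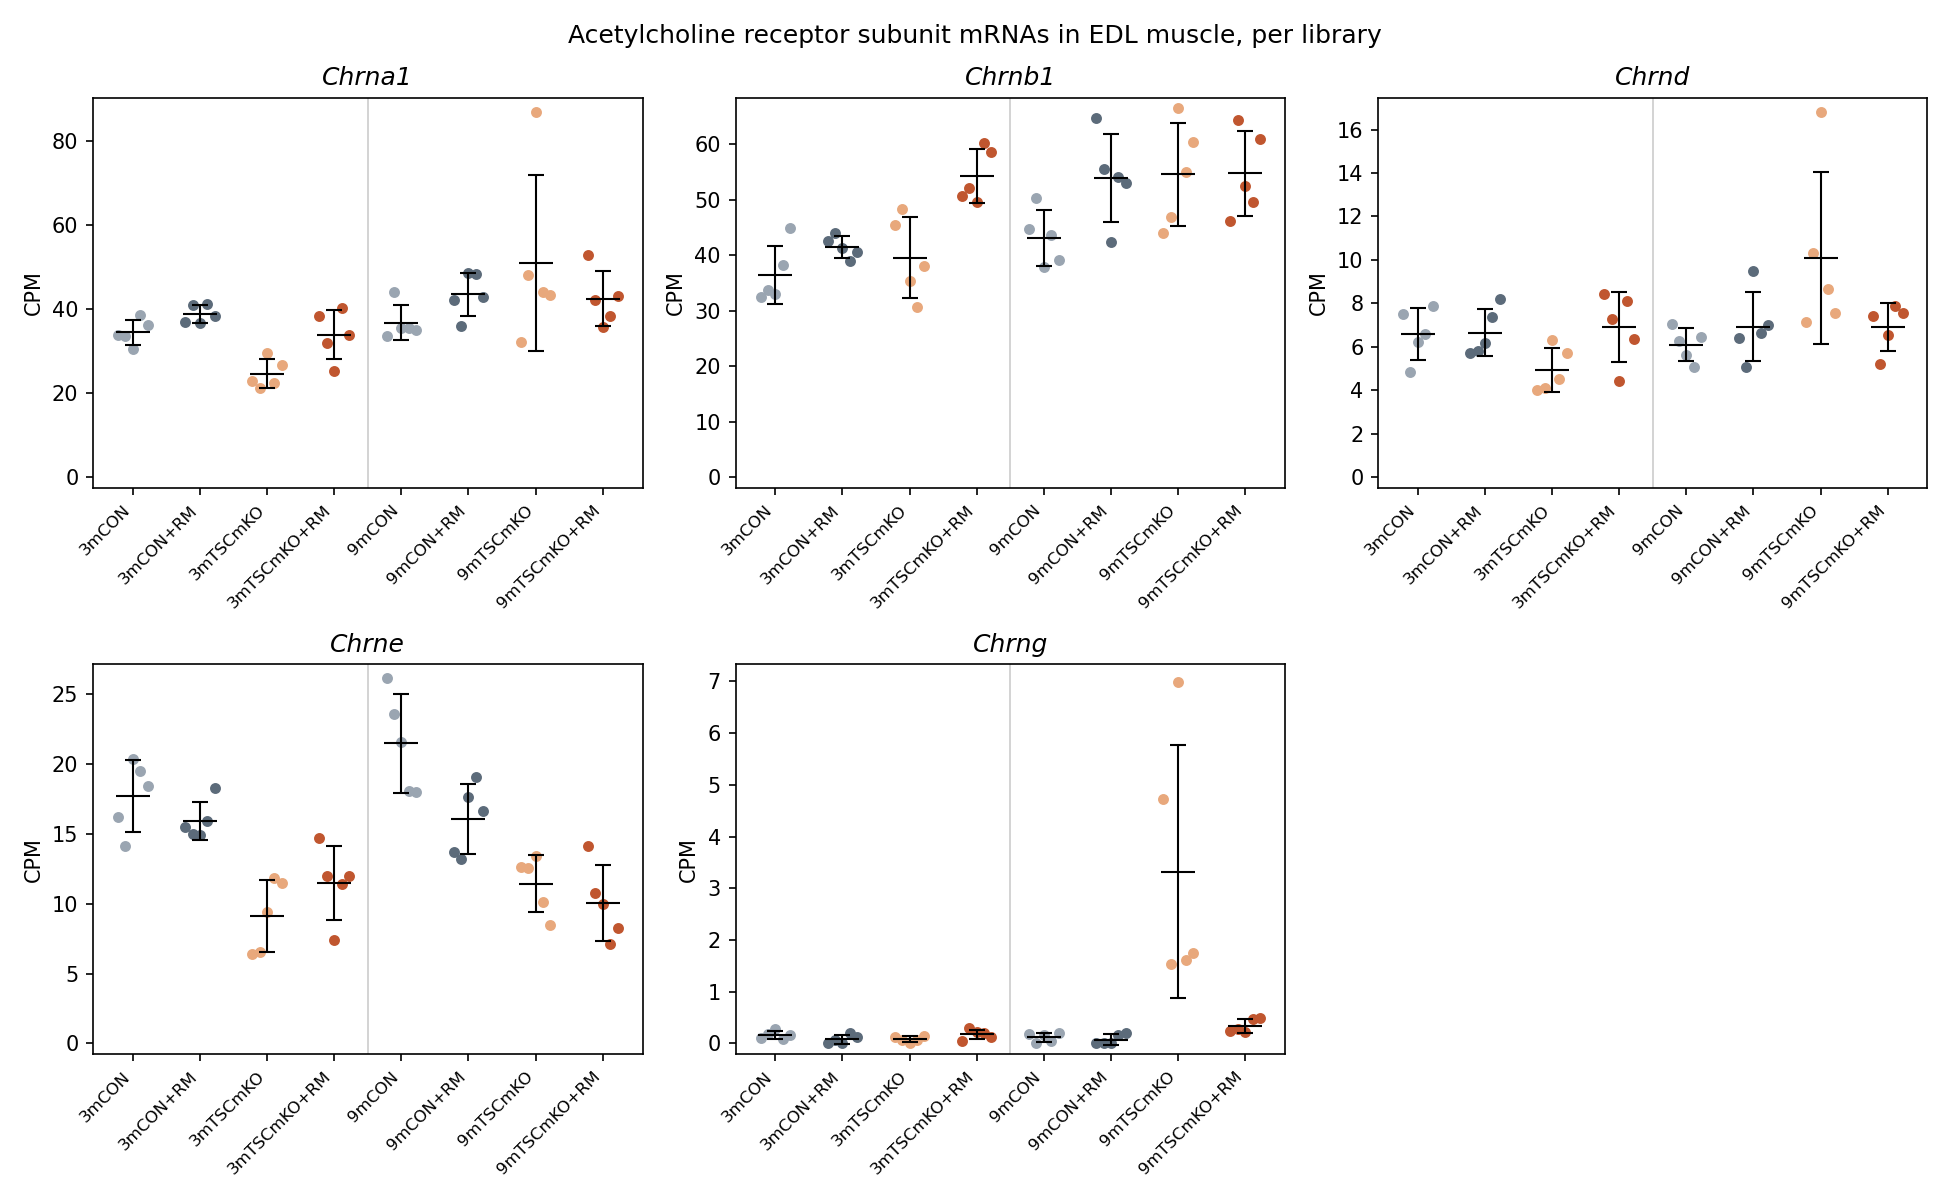
CPM of each AChR subunit mRNA (vertical axis, linear) in the 8 groups (horizontal axis), 1 panel per gene. Points are libraries, horizontal bars the mean and whiskers the SD of 5 libraries. Chrng is seen above 1 CPM in the 5 libraries of 9mTSCmKO. The group means of Chrne are 9.12 to 11.5 CPM in TSCmKO and 15.9 to 21.5 CPM in CON, while single libraries of the genotypes overlap.

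The fetal-to-adult balance was taken as the share of gamma in the gamma and epsilon mRNA, Chrng / (Chrng + Chrne), on the TPM scale, which allows for transcript length. The share was 0.294, 0, 0.328, 0.142 and 1.08% in the 9mCON libraries and 23.0, 8.15, 26.6, 9.40 and 14.6% in the 9mTSCmKO libraries. In 9mTSCmKO+RM it was 0.822, 1.81, 2.42, 4.85 and 4.09%. The 9mTSCmKO group lay apart from both, and 9mTSCmKO+RM overlapped 9mCON. Group means were 0.369% ± 0.419 (SD, n = 5), 16.4% ± 8.18 and 2.80% ± 1.65 in that order. The difference between 9mTSCmKO and 9mCON was 15.98 percentage points, and that between 9mTSCmKO+RM and 9mTSCmKO was -13.55 points. Each gave a two-sided exact permutation p of 0.00794, the smallest that 5 against 5 libraries allow, and an adjusted p of 0.0238 over 12 pairs of groups. The share in 9mTSCmKO+RM still exceeded 9mCON+RM (2.55 points, adjusted p = 0.0238, exact permutation test), with no overlap.

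The other shares were low. They averaged 0.803% in 3mCON, 0.373% in 3mCON+RM, 0.580% in 3mTSCmKO, 1.38% in 3mTSCmKO+RM and 0.246% in 9mCON+RM. At 3 months TSCmKO and CON did not pass the test (-0.223 points, adjusted p = 0.485, exact permutation test). 9mTSCmKO+RM against 9mCON gave 2.43 points (adjusted p = 0.0381, exact permutation test), and leaving out 1 library ended that call in 8 of 10 cases (adjusted p up to 0.0762), all but those without 9mCON replicate 5 or 9mTSCmKO+RM replicate 1. 9mCON and 3mCON did not pass the test, but did so without 9mCON replicate 5 (-0.61 points, adjusted p = 0.0318, exact permutation test). Both shares lay near the limit of detection, with 0 to 4 Chrng counts per 9mCON library and 2 to 7 per 3mCON library. Chrng itself was not called between them (log2 difference -0.39, adjusted p = 0.831, edgeR). The count behind a share was small, 203 to 365 gamma plus epsilon counts in the 9mTSCmKO libraries. Taken as a share of counts, library 3 of that group had 34.3% gamma (95% Wilson interval 29.6 to 39.3) and library 2 had 10.8% (7.50 to 15.4), so that these libraries differed beyond counting error. These intervals cover counting error only.

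The summed gamma and epsilon level was 30.8 ± 5.73 TPM (SD, n = 5) in 9mCON, 20.5 ± 4.42 TPM in 9mTSCmKO and 14.5 ± 1.74 TPM in 9mTSCmKO+RM. With the fetal mRNA added, the 9mTSCmKO mean was still below the 9mCON mean, and this sum was not tested.

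**Figure D2:**
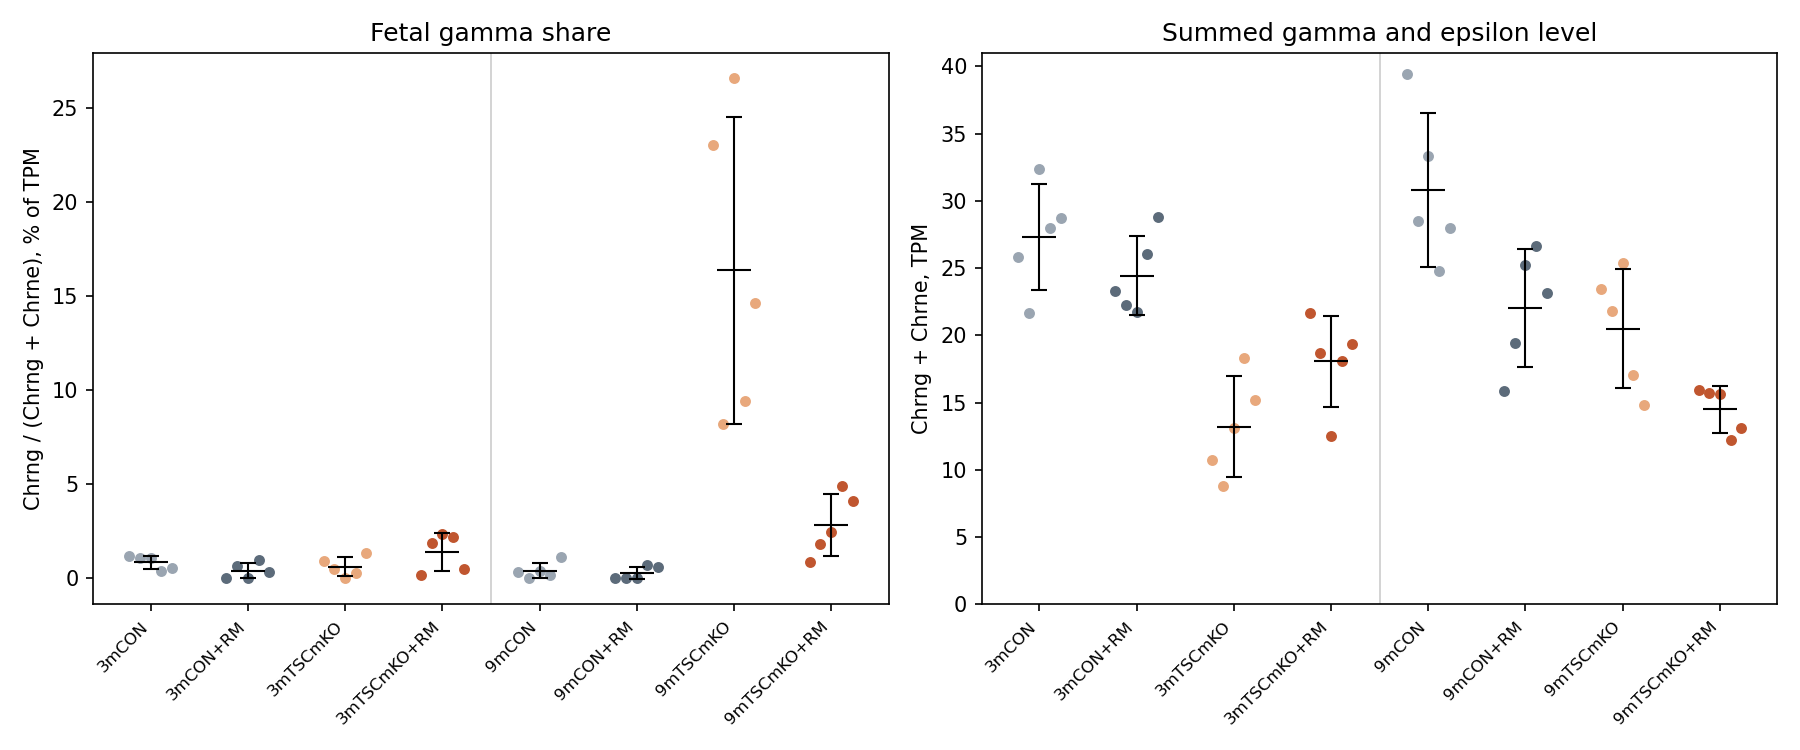
Left, share of gamma in gamma plus epsilon mRNA (percent of TPM); right, the summed level of both (TPM), for the 8 groups on the horizontal axis. Points are libraries, bars the mean and whiskers the SD of 5 libraries; the left panel shows 8.15 to 26.6% in 9mTSCmKO and at most 4.85% elsewhere.

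Chrne, the adult subunit, was lower in the knockout than in vehicle controls at both ages, and stayed lower after rapamycin. At 9 months the CPM were 26.2, 23.6, 21.6, 18.1 and 18.02 in 9mCON, and 12.6, 12.6, 13.4, 10.1 and 8.49 in 9mTSCmKO. The groups did not overlap. At 3 months they were 16.2, 14.1, 20.4, 19.5 and 18.4 in 3mCON, and 6.39, 6.53, 9.41, 11.8 and 11.5 in 3mTSCmKO, again without overlap. The log2 fold change of TSCmKO over CON was -0.91 at 9 months (SE 0.18, 95% interval -1.27 to -0.55, adjusted p = 8.35e-05, edgeR) and -0.95 at 3 months (SE 0.18, adjusted p = 1.07e-04). The genotype-by-age interaction was 0.04 (95% interval -0.47 to 0.54, adjusted p = 0.958 by edgeR). In order of level, the neighbouring groups overlapped at each step but one, that between 3mCON+RM (15.9 CPM) and 3mTSCmKO+RM (11.5 CPM). That step did not part all CON libraries from all TSCmKO libraries. Replicates 1 and 2 of 9mCON+RM (13.7 and 13.2 CPM) and replicate 2 of 3mCON (14.1 CPM) were low. They lay below replicate 1 of 3mTSCmKO+RM (14.7 CPM) and replicate 1 of 9mTSCmKO+RM (14.2 CPM). The other CON libraries lay above every TSCmKO library.

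No comparison of rapamycin with vehicle passed the threshold for Chrne. The 9mTSCmKO+RM libraries stood at 14.2, 10.8, 10.01, 7.10 and 8.29 CPM, overlapping 9mTSCmKO, with a log2 difference of -0.19 (95% interval -0.55 to 0.18, adjusted p = 0.450, edgeR). Against 9mCON this group stayed lower, at -1.10 (SE 0.18, adjusted p = 8.57e-06). In 3mTSCmKO+RM (14.7, 11.97, 7.39, 11.4 and 11.98 CPM) the log2 difference from 3mTSCmKO was 0.32 (95% interval -0.04 to 0.68, adjusted p = 0.202), and that from 3mCON was -0.63 (SE 0.18, adjusted p = 0.00989). Among controls, rapamycin gave a log2 difference of -0.42 in 9mCON+RM (95% interval -0.78 to -0.07, unadjusted p = 0.0213, adjusted p = 0.120, edgeR). In 3mCON+RM it was -0.16 (95% interval -0.51 to 0.20, adjusted p = 0.921). Neither passed the threshold, though the whole of the first interval was negative.

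Chrna1 encodes the alpha subunit, which carries the acetylcholine binding site and is shared by both forms. In CPM it was 33.6, 44.2, 35.6, 35.6 and 35.1 in 9mCON, and 32.3, 48.1, 87.1, 44.1 and 43.4 in 9mTSCmKO. The groups overlapped, replicate 3 of 9mTSCmKO was far above the rest and replicate 1 was below all 5 controls. The log2 fold change was 0.47 (SE 0.16, adjusted p = 0.0165, edgeR), and it fell to 0.20 (adjusted p = 0.224) without replicate 3. At 3 months the values were 33.8, 33.6, 30.6, 38.5 and 36.2 CPM in 3mCON, and 23.0, 21.2, 29.7, 22.5 and 26.7 CPM in 3mTSCmKO, with no overlap and the knockout lower. This log2 difference was -0.49 (SE 0.16, adjusted p = 0.0243), and leaving out any one of 3mCON replicate 4 and 3mTSCmKO replicates 1, 2 and 4 ended the call (adjusted p up to 0.0677).

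Chrnd, the delta subunit, also rose at 9 months. It was at 7.03, 6.26, 5.60, 5.08 and 6.46 CPM in 9mCON, and at 7.13, 10.3, 16.8, 8.66 and 7.57 CPM in 9mTSCmKO. All 5 knockout libraries were above all 5 control libraries, by a small margin for replicate 1. The log2 fold change was 0.73 (SE 0.20, 95% interval 0.33 to 1.12, adjusted p = 0.00347, edgeR), and 0.47 to 0.84 in fits that left out 1 library. At 3 months Chrnd was 4.94 ± 1.03 CPM in 3mTSCmKO and 6.61 ± 1.19 CPM in 3mCON (SD, n = 5), with a log2 difference of -0.42 (adjusted p = 0.145 by edgeR).

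Chrnb1, the beta subunit, had the smallest change of the called members at 9 months. It was at 44.6, 50.3, 37.8, 43.7 and 39.0 CPM in 9mCON, and at 44.0, 47.0, 66.5, 54.9 and 60.3 CPM in 9mTSCmKO, with overlap. The log2 fold change was 0.34 (SE 0.12, adjusted p = 0.0280, edgeR), and it lost the call in 4 of 10 fits without 1 library (adjusted p up to 0.102). Those were the fits without 9mCON replicate 3 or 5 and without 9mTSCmKO replicate 3 or 5. In 3mTSCmKO it was 39.5 ± 7.26 CPM, against 36.4 ± 5.21 CPM in 3mCON (SD, n = 5), a log2 difference of 0.12 (adjusted p = 0.569 by edgeR).

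At 9 months, then, Chrna1, Chrnb1, Chrnd and Chrng were called higher and Chrne lower in 9mTSCmKO against 9mCON. Chrng was called with the filter described above, and 37.9% of 13543 genes tested were called. Fitted on the compared groups only, Chrna1 (adjusted p = 0.1387) and Chrnb1 (adjusted p = 0.1075) were not called by edgeR. In that fit 2710 genes were called in place of 5133. At 3 months 2 members were called, Chrna1 and Chrne, both lower, against 19.8% of genes. In these bulk samples a change in the number of nuclei or fibers that express a gene and a change in mRNA per nucleus cannot be told apart. Between genes, on the TPM scale, Chrnb1 was highest in 9mCON (45.2), followed by Chrne (30.7), Chrna1 (14.9), Chrnd (3.91) and Chrng (0.113). In 9mTSCmKO the order was Chrnb1 (58.4), Chrna1 (21.5), Chrne (17.0), Chrnd (6.74) and Chrng (3.54). Epsilon per alpha on this scale was 1.71 to 2.82 in the 9mCON libraries and 0.549 to 1.33 in the 9mTSCmKO libraries. Delta per alpha was 0.227 to 0.320 and 0.269 to 0.335 in the same order. A low epsilon per alpha was not particular to the knockout. It was 1.15 to 1.35 in 9mCON+RM, below all of 9mCON and overlapping 9mTSCmKO. At 3 months 3mTSCmKO (1.02 to 1.84) overlapped 3mCON (1.47 to 2.38). These ratios were not tested.

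Rapamycin was then compared with vehicle within the knockout. At 9 months 2 of 5 members were called in 9mTSCmKO+RM against 9mTSCmKO, Chrng, with the filter described above, and Chrnd, both lower, where 32.6% of genes were called. Chrnd in 9mTSCmKO+RM was 7.43, 5.19, 6.53, 7.86 and 7.56 CPM, overlapping the 9mCON range, with a log2 change of -0.55 (SE 0.20, adjusted p = 0.0293, edgeR). Without 9mTSCmKO replicate 3 this was -0.29 (adjusted p = 0.233), and the call was also lost without 9mTSCmKO+RM replicate 2 (-0.46) or 3 (-0.53). Chrna1 (53.0, 42.2, 35.7, 38.4 and 43.2 CPM) had a log2 difference of -0.26 (adjusted p = 0.200), which was 0.01 without 9mTSCmKO replicate 3, and -0.40 without replicate 1 (adjusted p = 0.0423). Chrnb1 (46.2, 64.4, 52.5, 49.6 and 60.9 CPM) differed by 0.01 (95% interval -0.24 to 0.26, adjusted p = 0.979).

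At 3 months the called members were higher after rapamycin. In 3mTSCmKO+RM against 3mTSCmKO 2 of 5 members were called, Chrna1 and Chrnb1, both higher, where 23.6% of genes were called. Chrna1 was 38.3, 32.0, 25.4, 40.2 and 33.8 CPM in 3mTSCmKO+RM, which gave 0.46 (log2, SE 0.16, adjusted p = 0.0286, edgeR) and lost the call in 5 of 10 fits without 1 library (adjusted p up to 0.0930), those without 3mTSCmKO replicate 1, 2 or 4 or 3mTSCmKO+RM replicate 1 or 4. Chrnb1 was 50.7, 52.0, 49.5, 60.2 and 58.5 CPM against 45.5, 48.3, 35.3, 30.7 and 38.0 CPM in 3mTSCmKO, without overlap, and gave 0.46 (SE 0.12, adjusted p = 0.00548). Chrnd gave 0.48 (adjusted p = 0.0724), which passed the threshold without replicate 3 of 3mTSCmKO (0.60) or of 3mTSCmKO+RM (0.61), and Chrne 0.32 (adjusted p = 0.202). Against 3mCON, the 3mTSCmKO+RM group had 2 called members of 5 (16.7% of genes), Chrne lower and Chrnb1 higher (0.57, adjusted p = 8.77e-04).

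**Figure D3:**
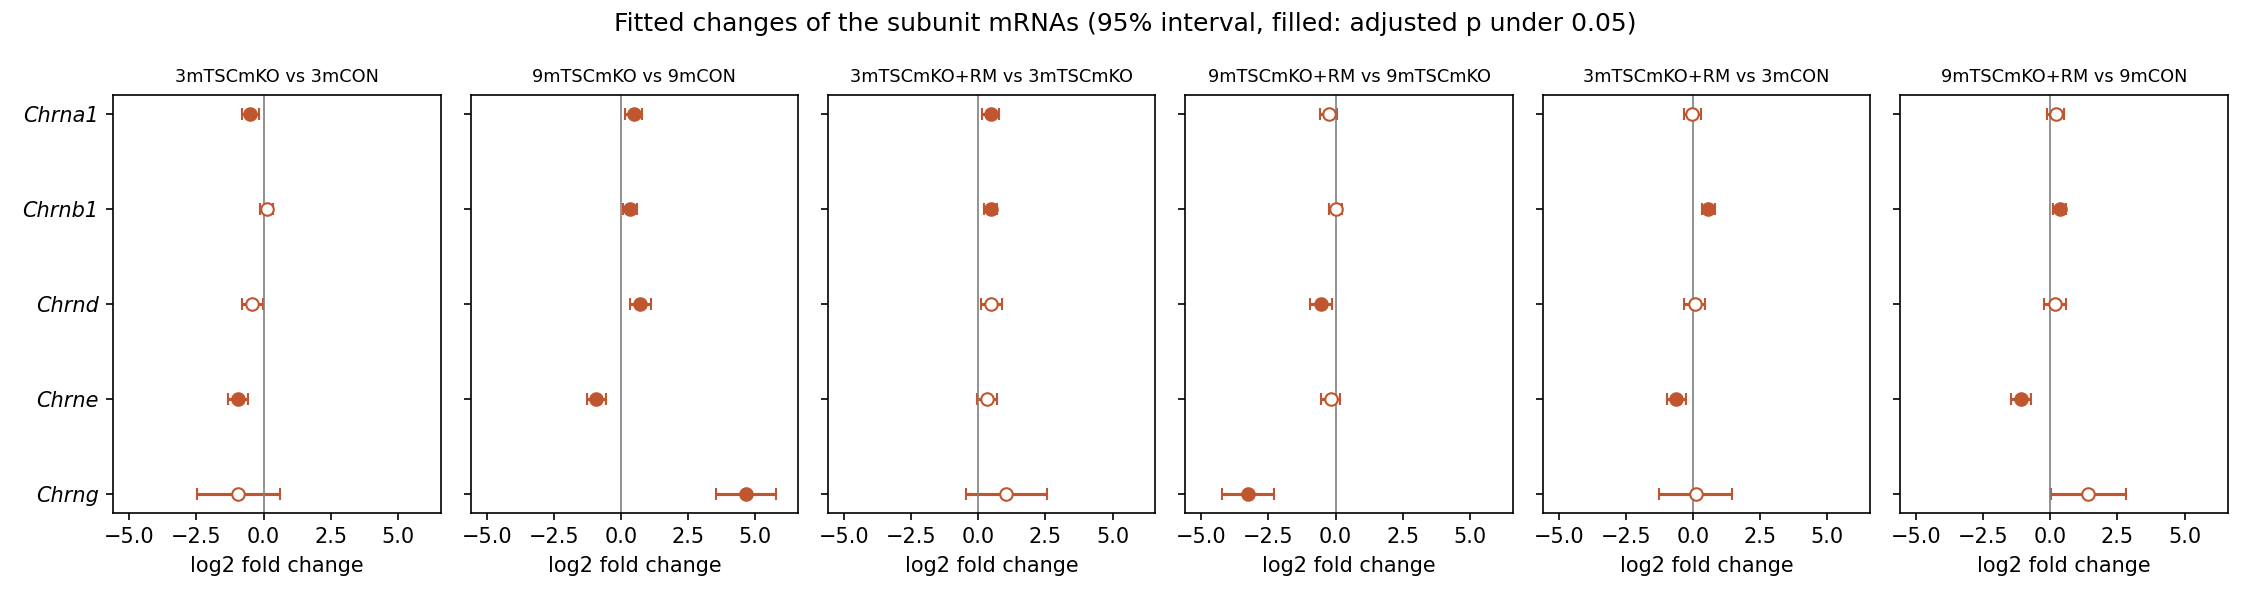
Log2 fold change (horizontal axis) of the 5 members (vertical axis) in 6 comparisons, with 95% intervals as horizontal bars; filled points have an edgeR adjusted p under 0.05. Chrng stands at 4.67 in 9mTSCmKO against 9mCON and at -3.26 in 9mTSCmKO+RM against 9mTSCmKO, and Chrne is below 0 in the 4 comparisons with CON.

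Against the other groups the members moved as follows. In 9mTSCmKO+RM against 9mCON (31.9% of genes called) Chrne was lower and Chrnb1 higher (0.35, adjusted p = 0.0299, edgeR), and Chrnb1 lost the call in 4 of 10 fits without 1 library (9mCON replicate 3 or 5, 9mTSCmKO+RM replicate 2 or 5, with 0.28 to 0.32). In 9mTSCmKO+RM against 9mCON+RM (20.6% of genes) Chrne (-0.67, adjusted p = 0.00539, edgeR) and Chrng were called. The Chrne values of these groups overlapped. Chrng had the losses given above without a filter and in 6 of 10 fits without 1 library. In 3mTSCmKO+RM against 3mCON+RM (10% of genes) Chrnb1 alone was called (0.39, adjusted p = 0.0381), a call lost in 7 of 10 such fits, all but those without 3mCON+RM replicate 2 or 3mTSCmKO+RM replicate 1 or 3. Chrne there was at -0.47 (adjusted p = 0.0865), and passed without 3mTSCmKO+RM replicate 1 (-0.58). With rapamycin in controls 0 of 5 members were called by edgeR or DESeq2, at 9 months (11.8% of genes called) or at 3 months (0.679% of genes, with no adjusted p for Chrng from DESeq2). In the quasi-likelihood test by edgeR, 2 members had an unadjusted p under 0.05 at 9 months, Chrnb1 and Chrne, and 0 had one at 3 months. Chrnb1 at 9 months (log2 difference 0.32) was called without 9mCON replicate 2 (0.39) or 9mCON+RM replicate 3 (0.40).

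Between ages, 4 of the 5 members were called in the knockout, among them Chrng, whose passing of the filter rested on 9mTSCmKO. In 9mCON against 3mCON 1.02% of genes and 0 members were called (0 members also in DESeq2 and at an unadjusted p under 0.05 in edgeR). In 9mTSCmKO against 3mTSCmKO 37.4% of genes were called, with Chrng (5.22), Chrna1 (1.05, SE 0.16, adjusted p = 4.15e-06), Chrnd (1.02, SE 0.20, adjusted p = 1.17e-04) and Chrnb1 (0.47, SE 0.12, adjusted p = 0.00331) higher. With insert size, which moved with age, as a term, the call of Chrnb1 was lost (0.4647, adjusted p = 0.06835), and 1702 genes were called in place of 5064. Chrne was at 0.31 (adjusted p = 0.170). The difference of the genotype effect between ages was itself tested, and Chrnd (1.14, SE 0.28, adjusted p = 0.0121) and Chrna1 (0.96, SE 0.22, adjusted p = 0.00807) were called, where 4.94% of genes were. Chrng, which passed the filter only through 9mTSCmKO, was at 5.62 (SE 0.995), and at 5.583 in the fit without a filter (adjusted p = 3.54e-04 by edgeR). The difference of the rapamycin effect between genotypes had 0 called members in edgeR and DESeq2 at both ages. At 9 months 4.87% of genes were called, with an unadjusted p under 0.05 in edgeR for Chrna1 (0.0277) and Chrnd (0.0133). Chrng there was at -2.45 (95% interval -4.96 to 0.06), and at -2.458 without a filter (adjusted p = 0.3151 by edgeR). Its control counts, 0 to 4 with vehicle and 0 to 3 with rapamycin, left little room for a fall. This test therefore cannot decide for Chrng. At 3 months 3.45% of genes were called, and 0 members had an unadjusted p under 0.05 in edgeR.

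Within 9mTSCmKO the libraries were not ranked alike in all members. In CPM replicate 3 was highest in every member, Chrng (6.98), Chrna1 (87.1), Chrnd (16.8), Chrnb1 (66.5) and Chrne (13.4). Replicate 1, second in Chrng (4.73 CPM), was lowest in Chrna1 (32.3), Chrnd (7.13) and Chrnb1 (44.0). Chrne ran from 8.49 to 13.4 CPM. Across all 40 libraries the log-scale correlation was 0.79 for Chrna1 with Chrnd, the highest of the 10 pairs, 0.52 for Chrnd with Chrng and -0.24 for Chrne with Chrng. These are descriptions over libraries that share depth and groups. Schwann and nerve markers (6 of 6 in the table, none at 0) summed to 145, 124, 50.8, 64.0 and 58.9 TPM in replicates 1 to 5. Replicate 3 was thus close to replicates 4 and 5 in these markers, and their part in the differences was not tested.

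**Figure D4:**
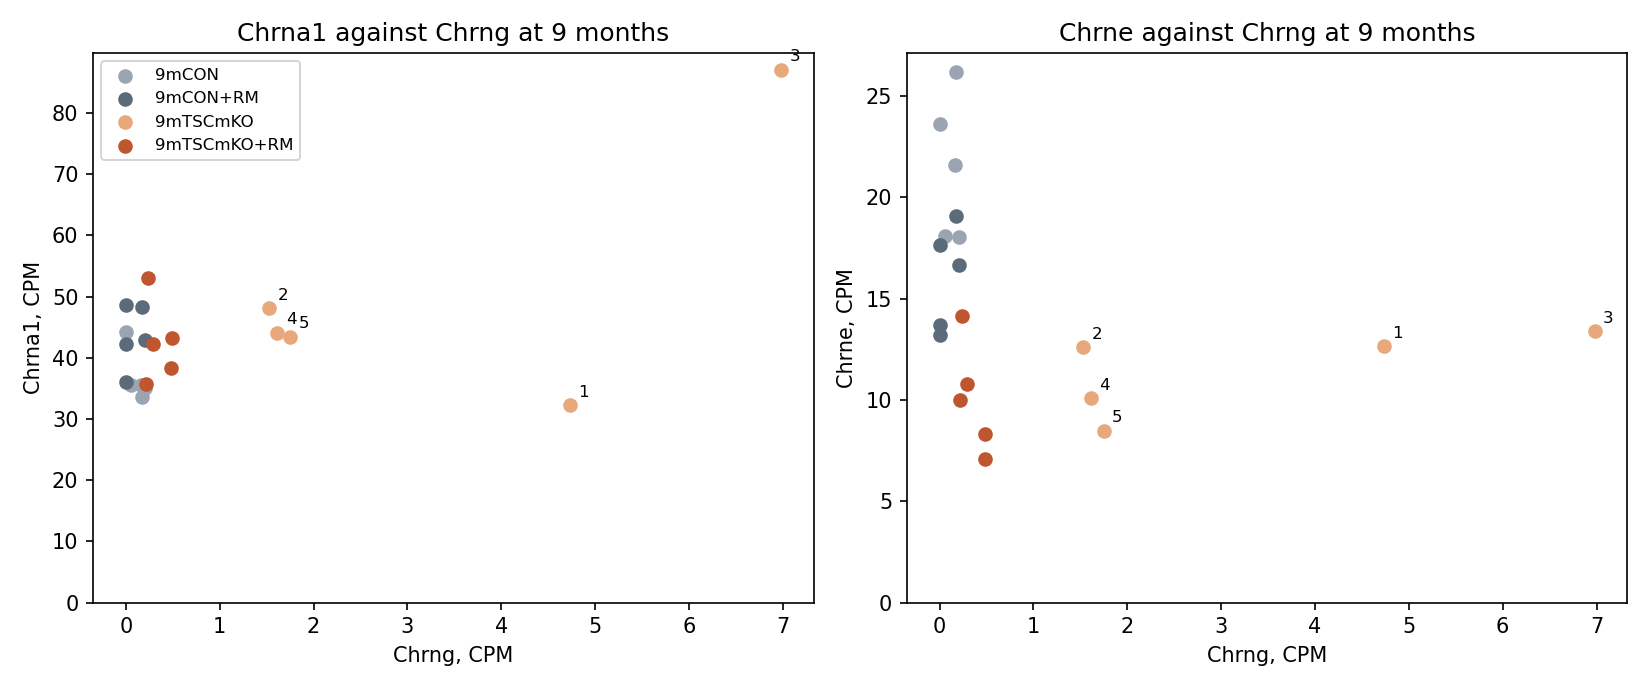
Chrna1 (left) and Chrne (right), in CPM on the vertical axis, against Chrng in CPM on the horizontal axis, in the 20 libraries of 9 months; numbers name the 9mTSCmKO replicates. Replicate 3 is highest in both Chrng and Chrna1, and replicate 1 is second in Chrng but has 32.3 CPM of Chrna1.

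Other cell types of the muscle were followed through their markers. In 9mTSCmKO against 9mCON, where 19.1% of all genes were higher and 18.9% lower, 2 of 6 Schwann and nerve markers were lower, and their sum ran from 50.8 to 145 TPM against 89.8 to 190 TPM. Of 4 immature-fiber markers measured of 5 listed (Myh3 was not in the table), 3 were higher and 1 lower. Their sum ran from 524 to 1028 TPM against 535 to 1219 TPM. Among the higher ones, Ncam1 and Myog are counted again below with the denervation programme, so that the lists are not independent. The 3 satellite-cell markers had no call, with sums of 2.83 to 4.03 TPM against 2.34 to 3.96 TPM. Of the other lists, 3 of 6 fast-fiber markers, 3 of 4 fibroblast markers, 3 of 4 tendon markers and 1 of 3 endothelial markers were lower, and 1 of 5 macrophage markers was higher. The fibroblast sum was 248 to 616 TPM against 578 to 1190 TPM, and the tendon sum 14.3 to 37.3 TPM against 30.2 to 257 TPM. In 9mTSCmKO+RM against 9mTSCmKO (15.8% of all genes higher, 16.8% lower), 3 of 6 fast-fiber markers were higher and 1 lower, 2 of 4 immature-fiber markers were higher and 2 lower, and 1 of 3 satellite-cell markers was higher. In the same comparison 1 of 6 Schwann and nerve, 1 of 5 macrophage and 1 of 3 endothelial markers were lower, and 0 of 4 fibroblast and 0 of 4 tendon markers were called. In 9mTSCmKO+RM against 9mCON (15.7% of all genes higher, 16.2% lower), 4 of 4 fibroblast, 3 of 4 tendon, 3 of 5 macrophage and 2 of 6 Schwann and nerve markers were lower, 3 of 4 immature-fiber markers were higher, and 1 of 6 fast-fiber markers was higher and 1 lower. At 3 months, in 3mTSCmKO+RM against 3mTSCmKO (10.6% of all genes higher, 13% lower), 3 of 4 immature-fiber and 3 of 6 fast-fiber markers were higher and 1 of each lower, 1 fibroblast, 1 tendon and 1 macrophage marker were higher, and 0 satellite-cell, Schwann and nerve, or endothelial markers were called. With age in the knockout, in 9mTSCmKO against 3mTSCmKO (19.1% of all genes higher, 18.3% lower), 3 of 4 fibroblast, 3 of 4 tendon, 2 of 3 endothelial, 2 of 6 fast-fiber and 1 of 5 macrophage markers were lower, and 3 of 4 immature-fiber, 1 of 4 tendon, 1 of 6 Schwann and nerve and 1 of 5 macrophage markers were higher. With rapamycin in 9-month controls (5.03% of all genes higher, 6.82% lower), 4 of 4 fibroblast, 4 of 5 macrophage, 3 of 4 tendon and 1 of 6 Schwann and nerve markers were lower. The macrophage sum was 10.8 to 39.6 TPM in 9mCON+RM against 42.4 to 126 TPM in 9mCON, without overlap. In 3mTSCmKO against 3mCON (11.4% of all genes higher, 8.32% lower), 1 of 4 immature-fiber markers was higher and 1 of 4 tendon markers lower. In 9mTSCmKO+RM against 9mCON+RM (11.3% of all genes higher, 9.33% lower), 3 of 4 immature-fiber and 1 of 5 macrophage markers were higher. There 2 of 6 fast-fiber and 1 of 3 endothelial markers were lower. In 3mTSCmKO+RM against 3mCON (8.98% of all genes higher, 7.71% lower), 2 of 4 immature-fiber, 1 of 5 macrophage and 1 of 4 tendon markers were higher. Of 6 fast-fiber markers there, 1 was higher and 1 lower. In 3mTSCmKO+RM against 3mCON+RM (5.67% of all genes higher, 4.36% lower), 2 of 4 immature-fiber and 1 of 4 tendon markers were higher. No marker was at 0 in all libraries of a group, and the part of these markers in the subunit differences was not tested.

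Of 18 listed genes of the apparatus that holds the receptor at the end plate 17 were tested. In 9mTSCmKO against 9mCON 4 were higher, 3 were lower and 10 did not pass the threshold, near the background of all genes, of which 19.1% were higher and 18.9% lower (median log2 fold change -0.19, -0.02 over all genes). Musk, the kinase that agrin activates to cluster AChRs, was at 15.5 ± 2.11 CPM in 9mTSCmKO and 7.62 ± 3.32 CPM in 9mCON (SD, n = 5), with a log2 fold change of 1.01 (adjusted p = 0.00303, edgeR). Erbb4, a neuregulin receptor (0.9988, adjusted p = 0.0288), Etv5, an Ets factor of synaptic nuclei (0.92, adjusted p = 1.34e-05), and Colq, the collagen tail that anchors acetylcholinesterase (0.69, adjusted p = 0.00291), rose as well. After rapamycin these 4 fell, Musk by 0.71 (adjusted p = 0.0372), Erbb4 by 1.47, Etv5 by 0.42 and Colq by 1.55. Chosen after their values were seen, Rapsn, whose product binds the receptor and ties it into clusters (-0.64, adjusted p = 3.40e-04), and Sntb1, a syntrophin (-0.65), were lower in 9mTSCmKO. Rapsn was at 16.7 ± 1.58 CPM against 26.0 ± 4.29 CPM in 9mCON. In 3mTSCmKO against 3mCON no gene of the list was higher and 4 were lower (median -0.28, -0.02 over all genes), where 11.4% of all genes were higher and 8.32% lower. In 9mTSCmKO+RM against 9mTSCmKO 5 were higher and 4 lower, where 15.8% of all genes were higher and 16.8% lower.

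Regulators and markers of the denervation programme were all tested, 12 of 12. In 9mTSCmKO against 9mCON 8 were higher and 1 lower, where 19.1% of all genes were higher and 18.9% lower (median log2 fold change 0.73, -0.02 over all genes). The list was written with earlier results of these data known. Gadd45a, a stress-response gene (2.74), Runx1, a transcription factor (2.22), and Ncam1, an adhesion molecule (1.34), were higher, with adjusted p of 4.80e-10, 1.10e-09 and 1.92e-07 by edgeR. Runx1 was at 15.4 ± 3.48 CPM in 9mTSCmKO against 3.28 ± 1.11 CPM in 9mCON (SD, n = 5). All 3 were lower after rapamycin at 9 months (Gadd45a fell by 1.92, Runx1 fell by 0.67 and Ncam1 fell by 0.63), and over the list 6 were lower and 2 higher, where 16.8% of all genes were lower and 15.8% higher. Myog, the E-box factor, was 1.61 ± 0.885 CPM in 9mCON, 3.16 ± 1.46 in 9mTSCmKO and 7.74 ± 3.62 after rapamycin (SD, n = 5). It was higher in 9mTSCmKO than in 9mCON (log2 fold change 0.9956, adjusted p = 0.0416, edgeR) and higher again in 9mTSCmKO+RM than in 9mTSCmKO (1.30, adjusted p = 0.00489). Myog and Chrng therefore moved in opposite directions after rapamycin. At 3 months, where Chrng stayed at 0 to 7 counts, Myog was higher in 3mTSCmKO+RM than in 3mTSCmKO (2.02, adjusted p = 1.77e-04).

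Factors that assemble or bind nicotinic receptors, 9 of 11 tested, had 3 higher, 1 lower and 5 that did not pass in 9mTSCmKO against 9mCON, a share near the 37.9% of all genes called (median log2 fold change 0.22, -0.02 over all genes). Hspa5, an endoplasmic reticulum chaperone (0.79, adjusted p = 1.39e-06, edgeR), Canx, another (0.57), and Ric3, a receptor chaperone (0.35, adjusted p = 0.0441), were higher, and Lypd6, a membrane-anchored modulator of nicotinic receptors, was lower (-1.93, adjusted p = 3.36e-06). After rapamycin Hspa5 fell by 1.30 and Ric3 by 0.42, and Lypd6 rose by 0.82 (adjusted p = 0.0374). Of the other nicotinic subunits, mostly neuronal, 4 of 11 were tested (Chrna2, Chrna3, Chrna4 and Chrnb4), and 0 were called in 9mTSCmKO against 9mCON or in 9mTSCmKO+RM against 9mTSCmKO (edgeR, with an unadjusted p under 0.05 for Chrna3 and Chrnb4 in the first and for Chrnb4 in the second).

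Over the 40 libraries, the 5 genes whose log2 CPM was most like that of Chrng, among 12636 genes with a mean of at least 1 CPM, were Uchl1 (r = 0.862), Krt8 (0.859), Map1b (0.858), Serpinb1a (0.849) and Map7d2 (0.837). Uchl1, a ubiquitin hydrolase, averaged 2.50 ± 0.789 CPM (SD, n = 5) in 9mCON, 135 ± 83.7 in 9mTSCmKO and 15.1 ± 8.31 after rapamycin. Those most like Chrne were Crym (0.853), Cbr2 (0.847), Grtp1 (0.836), Fam78b (0.825) and Magix (0.818). Cbr2, a carbonyl reductase, averaged 36.6 ± 2.82 CPM (SD, n = 5) in 9mCON, 3.71 ± 0.913 in 9mTSCmKO and 6.53 ± 2.62 after rapamycin. These correlations describe libraries that share groups, ages and depth.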

How the data were processed

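RNA from EDL muscle was sequenced by the authors as mRNA libraries, 5 per group, with 1 library per sample label. The libraries were strand-specific and single-end. The authors trimmed reads with Cutadapt 1.9.1 (version per the submitters' processing notes) and mapped them with kallisto 0.43.1, with the strand and each library's fragment length set, to well-supported protein-coding transcripts of GRCm38. A read that fitted several transcripts was split evenly among them, so that genes with shared sequence are less certain. The deposited tables hold estimated counts, given as whole numbers, and TPM, both made by the authors, and 0 value columns were without a label. Groups came from the sample labels.

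The estimated counts of 13543 genes with at least 1 CPM in 5 or more libraries were fitted in edgeR 4.0.16 (R 4.3.3; TMM factors, 8 group means, 40 libraries, robust quasi-likelihood F-tests), with 12 pairwise contrasts and 3 interactions. Two-sided p-values were adjusted by Benjamini-Hochberg over all genes tested, with a threshold of 0.05. The gamma share was compared over TPM by a two-sided exact permutation test in SciPy 1.17.1. The scripts were tested on simulated data. Total counts of 8883870 to 35224669 limit genes such as Chrng. Named genes were the 5 members, Tsc1, the 5 genes most correlated with Chrng and with Chrne, Myog, Musk, and up to 4 called genes of each list that changed most in 9mTSCmKO against 9mCON, with Rapsn, Sntb1 and the 4 other nicotinic subunits tested added after their values were seen. Some listed genes are counted with their list but are not reported here by name. The members and lists were chosen with earlier results of these data known. Alternatives were RLE and upper-quartile scaling, no filter, DESeq2 1.42.0, fits of the compared groups only, insert size as a term (without 9mTSCmKO+RM replicate 5, whose label gives none), the replicate block, limma 3.58.1 on log2(TPM + 0.1) and leaving out each library. The study states that each sample came from a separate animal.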

Additional observations from a re-analysis of the deposited data

Results flagged for a closer look

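A library far from the other 4 of its group was looked for in each of 5 genes and in the gamma share, 48 sets of 5 values in all. There were 2 such libraries, and chance gives about 1 in 20 sets. Chrna1 was at 44.15 CPM in 9mCON replicate 2, the highest of its group, and at 87.07 CPM in 9mTSCmKO replicate 3. On the TPM scale the first of these libraries was not apart (14.8 TPM, with 14.0 to 15.8 TPM in its group), whereas the second was again the highest of its group (33.9 TPM, with 13.6 to 21.96 TPM in the other 4). In CPM the second library also held the highest Chrnd, Chrnb1, Chrng and Chrne of its group. In TPM it was highest in Chrnd and Chrng. There its Chrnb1 (61.98 TPM) was below that of replicate 5 (67.38 TPM), and its Chrne (18.63 TPM) below that of replicate 2 (20.04 TPM).

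The effect of genotype differed between 3 and 9 months by the interaction test in edgeR for 3 members, on the log2 scale by 0.9593 for Chrna1 (adjusted p = 0.00807), 1.142 for Chrnd (adjusted p = 0.0121) and 5.616 for Chrng. Chrng passed the filter only through 9mTSCmKO, and without a filter its difference was 5.583 (adjusted p = 3.54e-04 by edgeR). Insert size moved with age, and with insert size as a term each of the 3 differences kept its sign and its side of the threshold.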

How the results depend on the processing

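Of 600 member fold changes recomputed under the alternatives other than leaving out each library, 570 kept their direction and their side of the threshold. Of the rest, 12 lost the call, 3 gained a call and 15 changed sign. Among these alternatives, the fits of the compared groups only and those with insert size did not use all 40 libraries. The calls of Chrne and Chrng in 9mTSCmKO against 9mCON, and of Chrng in 9mTSCmKO+RM against 9mTSCmKO, held under each alternative run.

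Most sign changes were of values near 0. Chrnb1 in 9mTSCmKO+RM against 9mTSCmKO was -0.001388 with RLE scaling, -0.001159 in DESeq2, -0.00285 with only the compared groups, -0.03541 with insert size and -0.003453 with the replicate block. Against 9mCON+RM, Chrnd in 9mTSCmKO+RM was 0.01333 with upper-quartile scaling, 2.316e-05 in DESeq2, 0.003702 with only the compared groups, 0.005804 with the replicate block and 0.1307 in limma. In that comparison Chrnb1 was -0.009283 without a filter and -0.01971 with insert size, and Chrna1 was 0.08071 in limma. The Chrne interaction with age was -0.02647 with insert size, and Chrng in 3mTSCmKO+RM against 3mCON was -0.07128 in limma. The gamma share in 3mTSCmKO against 3mCON was 0.1805 as a log2 ratio and 0.01232 points as a share of counts, and in 9mCON+RM against 9mCON it was 0.09479 as a log2 ratio. The causes were not tested.

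Calls at 9 months that were lost were Chrnb1 in the knockout without a filter (0.3216, adjusted p = 0.05841 by edgeR) and with only the compared groups (0.3546), Chrna1 with only the compared groups (0.4855), and Chrnd after rapamycin with only the compared groups (-0.5553) or in limma (-0.4517). Chrnb1 in 9mTSCmKO+RM against 9mCON was lost with only the compared groups (0.3608) or with insert size (0.3049), and in 9mTSCmKO against 3mTSCmKO with insert size (0.4647). Chrng in 9mTSCmKO+RM against 9mCON+RM was lost without a filter (2.187), with only the compared groups (2.203) or with insert size (2.055), and Chrnb1 in 3mTSCmKO+RM against 3mCON+RM without a filter (0.3918). Calls were gained by Chrng in 9mTSCmKO+RM against 9mCON in limma (1.248) and by Chrne in 3mTSCmKO+RM against 3mCON+RM with only the compared groups (-0.454). The test of the rapamycin effect between genotypes at 9 months called Chrng in limma on log2(TPM + 0.1) (-2.377, adjusted p = 0.02601), not in edgeR or DESeq2.

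In none of the 12 pairs of groups did all 5 correlations of same-numbered replicates exceed 0.1, so that the numbers were not taken to pair the samples. At most 3 of 5 did, in 9mTSCmKO+RM against 9mCON+RM (up to 0.377) and in 3mTSCmKO+RM against 3mCON+RM (up to 0.253). The replicate block left each call of a member fold change on its side of the threshold. For the share, sign flips within 5 pairs cannot go low enough, and the differences 15.98, -13.55, 15.77, 2.428 and 2.552 points all had an adjusted p of 0.125 (exact permutation test) with the replicate block.

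Leaving out each library in turn gave these ranges for 9mTSCmKO against 9mCON: Chrna1 0.1996 to 0.6063 and Chrnb1 0.2674 to 0.4178. For 3mTSCmKO against 3mCON it gave Chrna1 -0.5582 to -0.4405. After rapamycin at 9 months it gave Chrna1 -0.3952 to 0.01146, Chrnb1 -0.06797 to 0.08236 and Chrnd -0.656 to -0.2885, and at 3 months Chrna1 0.3936 to 0.5503 and Chrnd 0.4022 to 0.6052. Sign changes without a call were seen for Chrnd in 3mCON+RM against 3mCON (-0.06729 to 0.08387), Chrng in 9mCON against 3mCON (-0.6999 to 0.00184), the Chrne interaction with age (-0.05855 to 0.1815) and Chrnd in 3mTSCmKO+RM against 3mCON+RM (-0.0342 to 0.1688). In 3mTSCmKO+RM against 3mCON they were seen for Chrna1 (-0.09467 to 0.06206), Chrnd (-0.01826 to 0.1896) and Chrng (-0.1754 to 0.5035), and in 9mTSCmKO+RM against 9mCON+RM for Chrna1 (-0.1276 to 0.01977), Chrnb1 (-0.05426 to 0.09597) and Chrnd (-0.09816 to 0.1384). The share in 9mCON+RM against 9mCON ran from -0.2321 to 0.05439 points.

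Numbers of genes called over the table, which the percentages in the text rest on, changed by over 1.5 times in some fits. With only the compared groups there were 2710 in 9mTSCmKO against 9mCON (5133 in the fit of all groups), 2512 in 9mTSCmKO+RM against 9mTSCmKO (4410), 3740 in 3mTSCmKO+RM against 3mCON (2260), 2563 against 3mCON+RM (1359), 580 in 9mCON+RM against 9mCON (1604), 378 in 3mCON+RM against 3mCON (92) and 34 in 9mCON against 3mCON (138). The interactions gave 310 with age (669), and for rapamycin 201 at 9 months (660) and 1178 at 3 months (467). DESeq2 called 181 in 3mCON+RM against 3mCON and 375 in 9mCON against 3mCON. Without a filter these were 38 and 83, and the rapamycin interaction at 9 months was 435. Insert size as a term gave 25 in 9mCON against 3mCON and 1702 in 9mTSCmKO against 3mTSCmKO (5064). Leaving out 1 library gave 30 to 942 genes in 9mCON against 3mCON (942 without 9mCON replicate 5) and 38 to 65 in 3mCON+RM against 3mCON. Depth limits Chrng, at 0 to 8 counts outside 9mTSCmKO.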
